A study of Homo sapiens and Mus musculus with 61 samples.

Results

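The comparison of sgHS5, the first guide RNA aimed at hypersensitive site 5 of the human beta-globin locus, with the non-targeting guide sgGal4 covers 16655 regions of 300 bp, out of 143198 region entries in the 17 guide tables of the series. All regions listed by the authors in the sgHS5 table were taken, with 3 sgHS5 libraries and 4 sgGal4 libraries. The libraries come from CAPTURE-ChIP-seq in K562, an established human leukaemia cell line of erythroid character. In this assay a catalytically inactive Cas9 (dCas9) with a biotin tag is expressed together with a guide RNA and recovered with streptavidin, and the attached DNA is sequenced. Both groups carry the tagged dCas9 and differ in the guide, and the sgGal4 guide is the non-targeting one. The labels number the replicates without saying that they came from separate cultures, so p-values describe the spread among libraries, and this may be technical.

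HS5 lies at the far upstream end of the locus control region, the group of hypersensitive sites that governs the embryonic, fetal and adult beta-like globin genes. It is known as an insulator that binds CTCF, the zinc finger protein that together with cohesin anchors chromatin loops. Cas9 binds DNA by pairing its guide RNA with one strand next to an NGG motif (the PAM), and pairing of the bases closest to the NGG is the first and least tolerant step. Binding of dCas9 at sites that share only those bases is well known, and it occupies DNA without cutting it.

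The region at HS5 is chr11:5312418-5312717 (hg19), within introns of long annotated transcripts of HBE1 (embryonic epsilon-globin) and HBG2 (a fetal gamma-globin gene), 10609 bp from the nearest start, that of the olfactory receptor gene OR51B4. Its minus strand is shown because 1 stretch of 20 bases in it, with the NGG that follows, recurs in part in the other regions highest with sgHS5. That stretch and its NGG are in capitals.
HS5 region, minus strand: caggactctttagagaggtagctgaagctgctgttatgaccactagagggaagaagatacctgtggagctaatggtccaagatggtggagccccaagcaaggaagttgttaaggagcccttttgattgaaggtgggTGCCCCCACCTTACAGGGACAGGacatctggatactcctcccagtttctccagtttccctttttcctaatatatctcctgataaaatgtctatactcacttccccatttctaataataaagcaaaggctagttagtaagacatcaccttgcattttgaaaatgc

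The HS5 region holds 40 stretches of 20 bases followed by NGG on its 2 strands, and the sequence of the guide itself was not used here. The stretch in capitals spans chr11:5312559-5312581 with its NGG, and its centre lies 2.5 bp from the middle of the region. It was picked after the values were seen: among the 40 regions with the highest ratio in sgHS5 replicate 1, all groups of 8 bases followed by NGG were counted on both strands. The most frequent was acagggac, in 18 of the 40, and the next was gcccccac, in 17 of the 40. In all 16655 regions they occurred, with NGG, in 341 (2.05%) and 184 (1.10%). The first is positions 13 to 20 of the capital stretch, counted from its 5′ end, and is followed by NGG at HS5. The second is positions 2 to 9 of the same stretch and is not followed by NGG there, the next letters being ctt. They are called the NGG-side stretch and the inner stretch below. A run of more than 9 bases of the inner stretch goes on into the HS5 bases just before the capitals. No file used here ties either stretch to the sgHS5 guide, and whether the inner stretch, with no NGG at HS5, belongs to that guide was not tested.

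The sites below show both kinds, each written 5′ to 3′ on the strand that carries the match, with NGG at the end and capitals for NGG and the unbroken run of bases shared with HS5. The first is HS5. GPR157, SAMD5, PDCD6IP and N4BP2L1 name the nearest genes of high regions with the inner stretch, and UQCRFS1, GSS and STRIP2 those of high regions with the NGG-side stretch, all shown after their values were seen. GRIK1, NPVF and BSX mark 3 of the 4 other listed regions that share 12 or more bases of the NGG-side stretch. PINK1 marks the region tagged as off-target by the authors.
HS5, chr11:5312559-5312581 (-): TGCCCCCACCTTACAGGGACAGG
GPR157, chr1:9171041-9171063 (+): cagcagccctGTGCCCCCACAGG
SAMD5, chr6:147716502-147716524 (-): agagcccaGGGTGCCCCCACAGG
PDCD6IP, chr3:33961871-33961893 (-): cagctagctaGTGCCCCCACAGG
N4BP2L1, chr13:32983033-32983055 (+): agcacttcaGGTGCCCCCACAGG
UQCRFS1, chr19:29037217-29037239 (+): cagaagcctgTTACAGGGACTGG
GSS, chr20:33495757-33495779 (-): atagtgtgaaggACAGGGACTGG
STRIP2, chr7:129073948-129073970 (+): gaaaaggtcgcTACAGGGACGGG
GRIK1, chr21:31351322-31351344 (+): gtgactatCCTTACAGGGACAGG
NPVF, chr7:25436841-25436863 (-): gtagatttCCTTACAGGGACTGG
BSX, chr11:122828950-122828972 (-): tcccgtgtCCTTACAGGGACTGG
PINK1, chr1:20945147-20945169 (+): ggccccagcccTACAGGGACTGG

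The deposited values are log2 levels per library, from which whole read numbers could be recovered. The listed regions held 158766, 432553 and 245557 reads in sgHS5 replicates 1, 2 and 3, against 92256, 169968, 18647 and 18576 reads in sgGal4 replicates 1 to 4. No read was found at 1.89% to 3.24% of regions in the sgHS5 libraries, against 6.83% to 39.1% in the sgGal4 libraries. The libraries of a group were not equally alike. Between sgHS5 replicates 2 and 3 the counts spread 1.04 times as much as counting noise (chi-square over degrees of freedom, p = 0.000109), and Spearman's rho of their levels over regions was 0.80, whereas replicate 1 spread 7.76 and 5.88 times as much from them, with rho of 0.34 and 0.32. The sgGal4 replicates 1 and 2 also spread only 1.04 times as much as counting noise (chi-square p = 0.00145), against 1.46 to 4.08 for the other sgGal4 pairs. Results are therefore also given with each of these closely alike pairs counted as 1 library, a choice made after seeing the data.

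The HS5 region was the highest of all. It held 2627, 745 and 399 reads in the sgHS5 libraries, against 7, 11, 1 and 0 reads in the sgGal4 libraries. As a share of the reads in listed regions this was 1.65%, 0.172% and 0.162% with sgHS5, against 0.00759%, 0.00647%, 0.00536% and 0% with sgGal4. The exact Clopper-Pearson interval at 95% was 1.59% to 1.72% for sgHS5 replicate 1 and 0.147% to 0.179% for replicate 3, and it reached up to 0.0199% for the 0 reads of 18576 in sgGal4 replicate 4. A limit of 3 reads for a count of 0 allows a share of up to 0.0161% there. Intervals and limits cover counting error only. Every sgHS5 library lay above every sgGal4 library, and replicate 1 stood well above replicates 2 and 3. In each sgHS5 library HS5 had the highest level of the table, whereas it ranked between 4661 and 10457 in the sgGal4 libraries. The share averaged 0.663% ± 0.859 with sgHS5 (SD, n = 3) and 0.00486% ± 0.00336 with sgGal4 (SD, n = 4), a difference with a two-sided exact permutation p of 0.0286, the smallest that 3 against 4 libraries allow. With the closely alike pairs counted once, 2 against 3 libraries, the exact p was 0.1, again the smallest possible.

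The log2 ratio, the mean linear level of sgHS5 over that of sgGal4, was 7.62 at HS5, against a median of 0.28 over all regions. The mean log2 level differed by 6.96 ± 0.79 (SE), with a limma adjusted p = 0.0582 over all regions (Benjamini-Hochberg). This was just above the limit of 0.05, so HS5 was not an adjusted call. The adjusted p ranged from 0.000151 to 0.433 over the alternatives, and was below 0.05 without sgHS5 replicate 1 (0.0108, log2 ratio 5.92). With closely alike pairs counted once it was 0.433, with a log2 ratio of 8.02.

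No region had an adjusted limma p below 0.05, neither higher (0%) nor lower (0%), while 2605 of 16655 regions (15.6%) had an unadjusted p below 0.05. With a log2 ratio of at least 1 in either direction added, 1137 regions (6.83%) were higher with sgHS5 and 1467 (8.81%) were lower. All 3 sgHS5 libraries lay above all 4 sgGal4 libraries in 1738 regions (10.4%) and below them in 1194 (7.17%). On the share of reads in place of the level, these were 1242 above and 1440 below, so which direction held more regions depended on the scale. The count of adjusted calls depended on the scale and libraries too: it was 201 higher and 256 lower on log2 reads with a pseudocount of 1, and 5119 and 809 with sgGal4 replicates 1 and 2 alone as controls. High ratios were few. A log2 ratio of at least 1 was reached by 2857 regions (17.2%), at least 2 by 497 (2.98%) and at least 3 by 157 (0.943%), and 1939 regions (11.6%) had a ratio of at most -1.

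**Figure D1:**
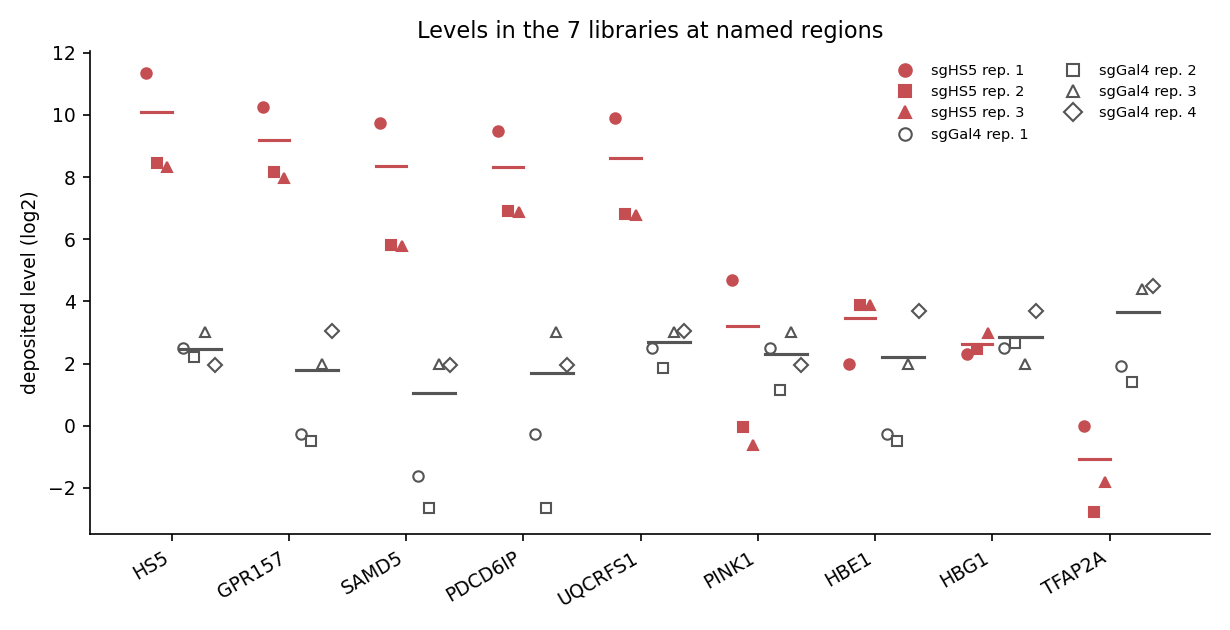
Deposited log2 level (y axis) in each of the 3 sgHS5 libraries (filled, red) and the 4 sgGal4 libraries (open, grey) at 9 regions, named HS5 or by the nearest gene, with horizontal lines at the log2 of the mean linear level. At HS5, GPR157, SAMD5, PDCD6IP and UQCRFS1 all sgHS5 points lie above all sgGal4 points, at HBE1, HBG1 and PINK1 they overlap, and at TFAP2A they lie below.

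In the beta-globin cluster only 3 regions were listed. None lay within 1.5 kb of HS1 to HS4, of 3′HS1 at the opposite end or of the globin gene promoters, so the table gives no value for these sites. Near HBE1, chr11:5288429-5288728 held 3, 49 and 28 reads with sgHS5, against 1, 2, 0 and 2 reads with sgGal4. Replicates 2 and 3 were high and replicate 1 was not, and the levels of the groups overlapped (log2 ratio 1.28, limma adjusted p = 0.385). The ratio was 2.60 without sgGal4 replicate 4 and 0.68 with closely alike pairs counted once, and with sgGal4 replicates 1 and 2 alone as controls it was 3.85 (limma adjusted p = 0.00803, against 0.167 to 0.970 under the other alternatives). Near HBG1 (the other fetal gamma-globin gene), chr11:5273352-5273651 held 4, 21 and 16 reads with sgHS5, against 7, 14, 0 and 2 reads with sgGal4 (log2 ratio -0.22, limma adjusted p = 0.930). A region overlapping it was listed in all 16 other tables. Together both regions took 0.0128% ± 0.00735 of reads with sgHS5 (SD, n = 3) and 0.00990% ± 0.00885 with sgGal4 (SD, n = 4), which did not differ beyond the spread between libraries (two-sided exact permutation p = 0.657). Within 1 Mb of HS5 there were 14 listed regions with a median log2 ratio of 0.15. Of the 14, HS5 alone lay above all sgGal4 libraries (7.14%, against 10.4% of all regions), and 1 region lay below (against 7.17% of all regions).

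Outside the cluster the 12 highest regions among those with unadjusted p below 0.05 and no overlap lay on chromosomes 1, 3, 5, 6, 10, 11, 13, 17, 19, 20 and 22. Genes name their places only, since the assay measures dCas9 on DNA and not gene activity. The second region of the table, chr1:9170911-9171210, lies in an intron of GPR157 (an orphan G protein-coupled receptor), 369 bp from its start. It held 1212, 626 and 326 reads with sgHS5, against 1, 2, 0 and 1 reads with sgGal4, and its log2 ratio was 7.41 (limma adjusted p = 0.0582). It held fewer reads than HS5 in each sgHS5 library.

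The third, chr6:147716359-147716658, is intergenic, 113318 bp from the start of SAMD5 (a protein with a sterile alpha motif). It held 862, 156 and 88 reads with sgHS5, against 0 reads in each of the 4 sgGal4 libraries. Against a floor of 3 reads over the sgGal4 group, its pooled share of reads was at least 132-fold higher with sgHS5. This limit was 35.9-fold without sgHS5 replicate 1, 234.5-fold without sgHS5 replicate 2 and 57.0-fold without sgGal4 replicate 2. The intergenic chr3:33961721-33962020, nearest to PDCD6IP (ALIX, an adaptor of the membrane-cutting ESCRT machinery), held 721, 295 and 170 reads with sgHS5, against 1, 0, 1 and 0 reads with sgGal4 (log2 ratio 6.62). The intergenic chr19:29037095-29037394, nearest to UQCRFS1 (the iron-sulfur subunit of respiratory complex III) at 666814 bp, held 965, 280 and 158 reads with sgHS5, against 7, 9, 1 and 1 reads with sgGal4 (log2 ratio 5.94). In all of these the groups did not overlap and sgHS5 replicate 1 was highest by level.

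The next 8 had log2 ratios between 5.07 and 5.90. They lay in introns of N4BP2L1, SCN4B (a beta subunit of voltage-gated sodium channels), ACSS2 (an acetyl-CoA synthetase, with GSS as the nearest start) and NEURL1 (a ubiquitin ligase), and between genes near PLTP (phospholipid transfer protein), ACACA (acetyl-CoA carboxylase, the committed step of fatty acid synthesis), SHROOM1 (an actin-binding protein) and ZNF280B. At N4BP2L1 the sgHS5 libraries held 544, 308 and 149 reads, against 0, 0, 0 and 2 reads with sgGal4. At NEURL1 they held 198, 62 and 38 reads, against 2, 0, 0 and 0 reads with sgGal4. Adjusted limma p-values of the 12 regions ran from 0.0582 to 0.133. Without sgHS5 replicate 1 all 12 ratios were smaller, at 6.30 for GPR157, 5.19 for PDCD6IP, 4.74 for SAMD5, 4.10 for UQCRFS1 and 2.53 (GSS) to 4.78 (PLTP) for the others. GPR157 (limma adjusted p = 0.0140) and UQCRFS1 (limma adjusted p = 0.0118) then passed the threshold of 0.05, and the other 10 did not. The 12 were chosen as the highest in these same libraries, so these p-values describe the choice. None of these genes is a globin or chromatin loop gene of the lists examined. The 2 regions of the beta-globin list lie in the cluster, which the 12 leave out. Only 3 alpha-globin and 4 CTCF and cohesin regions were listed among all 16655, so their absence from the 12 says nothing about these genes.

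Of the 952 regions higher at unadjusted p below 0.05 without overlap, 187 (19.6%) had their middle within 1 kb of a start, near the 17.6% of all regions. After GPR157, the highest of those given here lay at PRSS35, CAMK2A, ERAP1, DNHD1, STRIP2 and EIF3B, with log2 ratios between 3.99 and 4.81, or 1.61 (PRSS35) to 3.53 (CAMK2A, limma adjusted p = 0.0483) without sgHS5 replicate 1. At CAMK2A, a calcium-dependent kinase of neurons, chr5:149625130-149625429 held 126, 103 and 39 reads with sgHS5, against 1, 3, 0 and 0 reads with sgGal4. At EIF3B, a subunit of translation initiation factor 3, chr7:2393520-2393819 held 93, 39 and 41 reads with sgHS5, against 3, 2, 0 and 0 reads with sgGal4. All lay above every sgGal4 library.

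Every one of the 12 highest regions outside the cluster shared at least 6 unbroken bases, next to an NGG, with one of the stretches. The inner stretch gave 8 of them with 10 to 12 shared bases (GPR157, SAMD5, PDCD6IP, N4BP2L1, PLTP, SCN4B, ZNF280B and NEURL1), and ACACA and SHROOM1 shared 7 and 6 of its bases. The NGG-side stretch gave UQCRFS1 with 10 bases and GSS with 8. Among these promoter regions after GPR157, CAMK2A had 9 bases of the inner stretch. PRSS35 had 10, STRIP2 9, ERAP1 8, DNHD1 7 and EIF3B 6 bases of the NGG-side stretch. Since replicate 1 chose the stretches, and enters the ratios, these counts describe the choice and support nothing by themselves. Short runs were not rare. Over all 16655 regions, runs of exactly 6 bases were found in 264 (inner) and 332 (NGG-side), and of exactly 7 in 70 and 273. Regions with 8 or more bases of the other stretch were left out of these.

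Over the whole table the 341 regions with the NGG-side stretch had a median log2 ratio of 2.05, the 184 with the inner stretch 2.02, and the 16131 with neither 0.25. Only 1 region held both. A ratio of at least 2 was reached by 178 regions (52.2%) with the NGG-side stretch and by 93 (50.5%) with the inner stretch, against 2.98% of all regions. Of the 157 regions at a ratio of 3 or more, 70 held the NGG-side stretch, 47 the inner one and 40 neither. Of those 40, 22 shared 7 unbroken bases of one of the stretches, as did 342 of all 16131 regions with neither. Replicate 1 chose the stretches and enters this ratio, so these counts in part describe the choice. All 3 sgHS5 libraries lay above all sgGal4 libraries in 49 (14.4%) and 65 (35.3%) of the 2 sets, against 10.4% of all regions, and below them in 0 and 1, against 7.17%. The order of the medians, both sets above the regions with neither, held on log2 reads with a pseudocount of 1 or 5, on levels centred on library medians, with sgGal4 replicates 1 and 2 alone and with closely alike pairs counted once. Without sgHS5 replicate 1 it held for the inner stretch and not for the NGG-side stretch, and a ratio of at least 2 was then reached by 11 NGG-side and 28 inner regions, against 1.03% of all regions.

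Regions with the letters alone were not set apart. The same 8 letters without NGG after them, in regions free of either stretch with NGG, gave medians of 0.35 in 185 regions (NGG-side letters) and 0.40 in 367 regions (inner letters), close to the 0.28 of all regions. Above all sgGal4 libraries lay 23 (12.4%) and 43 (11.7%) of these, near the 10.4% of all regions. By the first letter of NGG, medians ran from 1.79 (GGG, 41 regions) to 2.15 (CGG, 33 regions) for the NGG-side stretch and from 1.34 (CGG, 13 regions) to 2.20 (TGG, 64 regions) for the inner stretch. With NGA in its place the medians were 0.97 in 10 regions and 0.72 in 17 regions, and with NAG 0.29 in 15 and 0.24 in 27. The letters were chosen for standing before NGG in regions high in sgHS5 replicate 1, which enters these ratios. The gap to regions with NGG follows in part from that choice. By replicates 2 and 3 alone over sgGal4, medians without NGG were 0.28 (NGG-side letters) and 0.29 (inner letters). With NGG they were -0.21 and 0.70.

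The sgHS5 libraries differed in how much of their signal lay at these sites. The NGG-side set without HS5 itself took 12.8%, 1.502% and 1.42% of reads in sgHS5 replicates 1, 2 and 3, against 0.736%, 0.802%, 1.28% and 1.39% in the sgGal4 libraries. The inner set took 8.76%, 1.69% and 1.65% with sgHS5, against 0.449%, 0.452%, 0.617% and 0.851% with sgGal4. All sgHS5 libraries were above all sgGal4 libraries in both sets, by a wide margin only in replicate 1 and by the smallest margin for the NGG-side set in replicates 2 and 3. Regions with neither stretch held the rest, 76.8%, 96.6% and 96.8% of reads with sgHS5, against 97.8% to 98.8% with sgGal4.

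**Figure D2:**
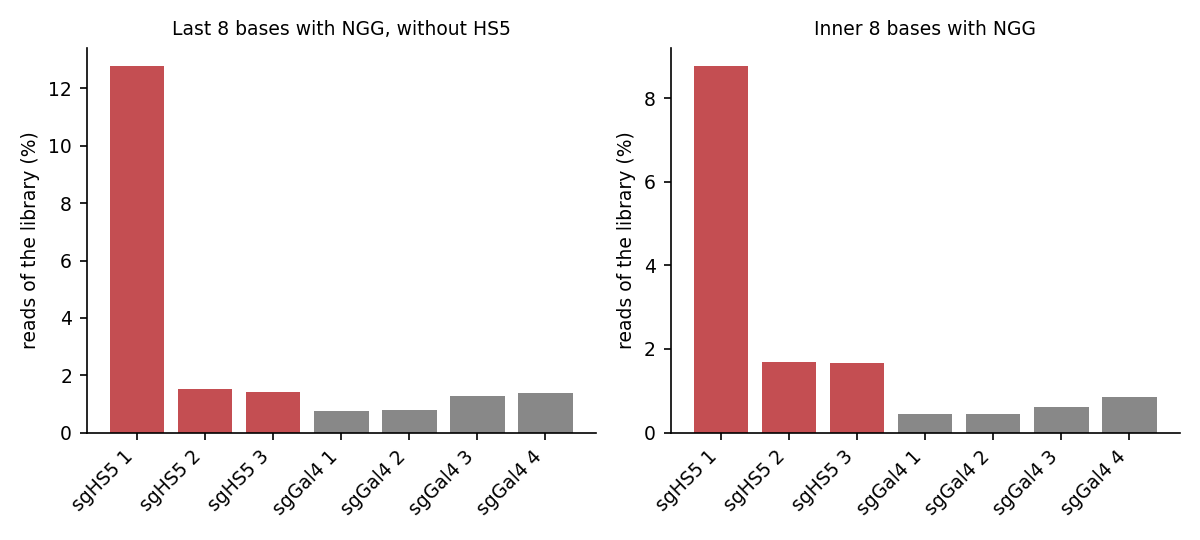
Percent of a library's reads in listed regions (y axis, separate scales) that lay in the 340 regions with the NGG-side stretch other than HS5 (left) and in the 184 regions with the inner stretch (right), for the 3 sgHS5 libraries (red) and the 4 sgGal4 libraries (grey), 1 bar per library. Replicate 1 of sgHS5 reaches 12.8% and 8.76%, and every other library is below 2%.

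Replicates 2 and 3 did not choose the stretches. By their mean level alone over that of sgGal4, the inner set had a median log2 ratio of 0.70, the NGG-side set -0.21 and regions with neither 0.18. Among the 40 regions highest by replicates 2 and 3, 19 held the inner stretch and 5 the NGG-side stretch, and HS5 ranked 2. Of these 40 regions 22 were also among the 40 highest by replicate 1. By replicate 1 alone the medians were 3.19 for the inner set, 3.34 for the NGG-side set and 0.17 for regions with neither. Both ratios are to the same sgGal4 libraries. Many NGG-side regions were high in replicate 1 and, by level, at or below the sgGal4 mean in replicates 2 and 3. Their median reads there were 13 and 7, against 1, 2, 0 and 0 in sgGal4 replicates 1 to 4. Over all regions the medians were 24 and 13, against 5, 9, 1 and 1, so in each of these libraries the NGG-side regions held fewer reads than is typical. In sgGal4 replicates 3 and 4 a count of 0 has a level of 1.99 and 1.96, which enters that mean. By share of reads the NGG-side set lay above every sgGal4 library in both, so its direction there depended on the scale.

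**Figure D3:**
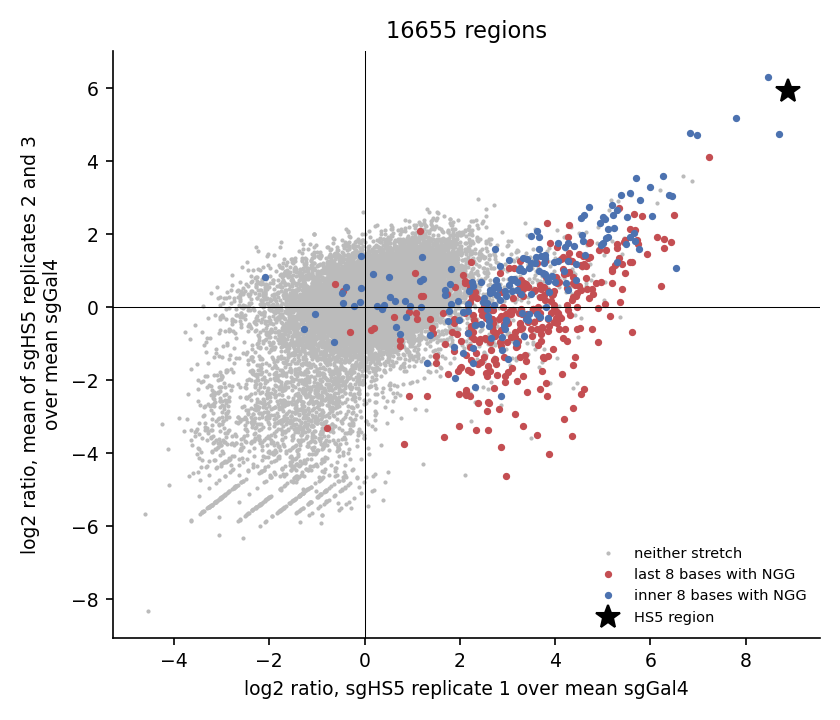
Log2 ratio of sgHS5 replicate 1 (x axis) and of the mean of sgHS5 replicates 2 and 3 (y axis) to the same mean of the 4 sgGal4 libraries, 1 point per region for the 16655 regions, coloured by the stretch each holds with NGG. HS5 (star) and a line of regions with the inner stretch are high on both axes, while most regions with the NGG-side stretch are high on the x axis and scatter around 0 on the y axis.

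In the ratio over all 3 sgHS5 libraries, medians climbed with the number of unbroken bases shared. Replicate 1 chose the stretches and enters this ratio, so the climb follows in part from that choice. For the NGG-side stretch the median log2 ratio was 0.25 with 4 shared bases (1504 regions), 0.49 with 5, 0.68 with 6, 1.08 with 7 and 2.04 with 8 (191 regions). It stayed between 1.96 and 2.03 with 9 or 10 bases, and was 2.57 with 11 (15 regions) and 2.91 with 12 or more (5 regions, HS5 among them). For the inner stretch the median was 0.31 with 5 shared bases, 0.44 with 6, 0.92 with 7, 1.06 with 8, 1.48 with 9, 2.47 with 10 (55 regions) and 2.97 with 11 or more (45 regions). Each step up to 8 bases raised the median of the first, while for the inner stretch the medians kept climbing to the group with 11 or more. Within that group longer runs were not always higher. SAMD5 with 12 bases had a log2 ratio of 7.28, and the regions nearest to CLDN19 and RUSF1 with 13 had 1.96 and 1.66. The region chr2:91956279-91956578 with 15 bases had 2.65. By replicates 2 and 3 alone, the inner stretch gave 0.33 with 8 bases, 0.47 with 9, 1.02 with 10 and 1.35 with 11 or more. The NGG-side stretch did not climb there up to 11 bases. It gave 0.20 with 4 bases, 0.25 with 5 and 0.26 with 6, lay between -0.38 and 0.13 with 7 to 11, and was 0.50 with 12 or more (5 regions, HS5 among them).

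**Figure D4:**
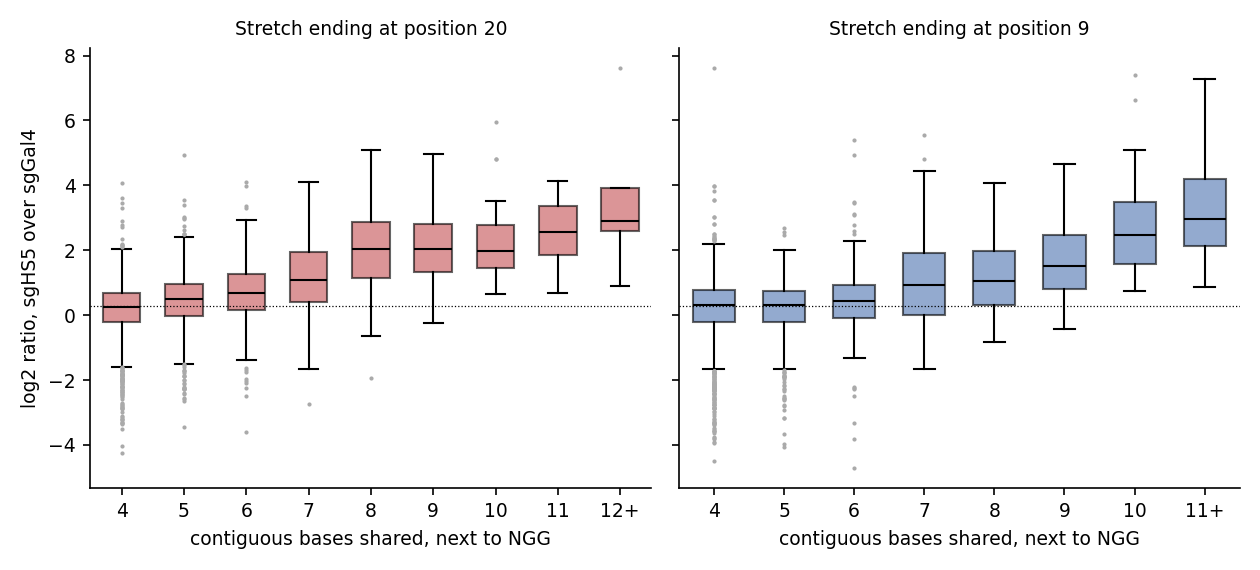
Log2 ratio of sgHS5 over sgGal4 (y axis) by the number of unbroken bases a region shares, next to an NGG, with the NGG-side stretch (left, ending at position 20) and with the inner stretch (right, ending at position 9). Boxes span the quartiles, whiskers reach 1.5 box heights, points lie beyond, and the dotted line is the median of all regions, 0.28. Regions that hold 8 or more bases of the other stretch with NGG were left out of each panel. The medians climb to 2.91 (left) and 2.97 (right). The ratio includes replicate 1, which chose the stretches.

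Long NGG-side matches outside HS5 were still far below it. The 4 other listed regions with 12 or more NGG-side bases had log2 ratios of 3.92 (GRIK1, a glutamate receptor gene), 2.91 (NPVF, a neuropeptide gene), 2.59 (SLC35G4) and 0.90 (BSX, a brain homeobox gene). The GRIK1 region held 312, 28 and 25 reads with sgHS5, against 4, 2, 1 and 3 reads with sgGal4. The BSX region held 19, 7 and 5 reads with sgHS5, against 0, 1, 1 and 1 reads with sgGal4. No listed region other than HS5 shared more than 13 unbroken bases of that stretch. The region tagged as off-target by the authors, chr1:20945020-20945319 in an exon of CDA (cytidine deaminase), nearest to the start of PINK1, shared 9 bases. It held 25, 4 and 1 reads with sgHS5, against 7, 6, 1 and 0 reads with sgGal4. High in replicate 1 only, its groups overlapped (log2 ratio 0.89, limma adjusted p = 0.730), and without that replicate the ratio was -2.62.

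Counted from the genome side, in GRCh37 chromosomes 1 to 22 and X, the NGG-side stretch with NGG occurs at 6688 sites, of which 349 (5.22%) lay in a listed region, and the inner stretch at 4822 sites, of which 184 (3.82%) did. The share listed was 3.41% of 5840 sites with exactly 8 NGG-side bases, 15.9% with 9, 17.4% with 10, 40.5% of 37 sites with 11 and 62.5% of 8 sites with 12 or more. For the inner stretch it was 1.21% of 3385 sites with 8 bases, 3.64% with 9, 28.9% of 190 sites with 10 and 69.2% of 65 sites with 11 or more. Listing is the authors' own choice of regions, and sites in sequence that reads cannot be placed in uniquely could not be listed.

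The matches sat at the middle of the regions. The base next to the NGG was a median of 7.5 bp from the region middle for the NGG-side stretch and 6.5 bp for the inner stretch. It was within 25 bp of the middle in 286 of 341 regions (83.9%) and in 153 of 184 (83.2%), where 16.7% of a region's length lies. The same letters without NGG lay within 25 bp in 11.7% and 17.9% of regions. Among regions at a ratio of 2 or more, 165 of 178 (92.7%) and 90 of 93 (96.8%) had the match there, and among those under 1 the counts were 34 of 56 (60.7%) and 18 of 39 (46.2%).

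**Figure D5:**
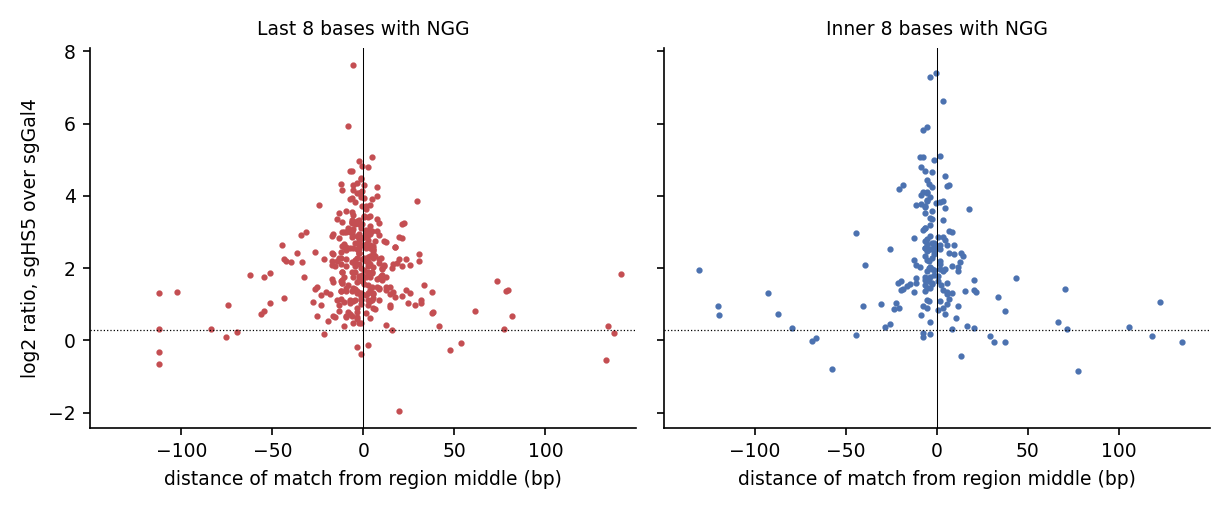
Log2 ratio of sgHS5 over sgGal4 (y axis) against the distance of the base next to the NGG from the middle of the 300 bp region (x axis, bp), 1 point per region, for the NGG-side stretch (left, 341 regions) and the inner stretch (right, 184 regions). Points above a ratio of 2 gather within 25 bp of the middle, and the dotted line is the median of all regions, 0.28.

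The capital stretch was chosen for its frequency among the highest regions, so lower counts for the other 39 stretches beside NGG in the HS5 region follow in part from that choice. Their last 8 bases with NGG occurred in 3 to 532 other listed regions, and at most 2 of those reached a log2 ratio of 3. For the 24 of them found in 10 or more regions, the median log2 ratio lay between -0.04 and 0.89.

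The 2 sets did not lie in promoters more often than other regions: 13.8% and 14.1% of regions had their middle within 1 kb of a start, against 17.6% of all regions. The HS5 region also holds a match to CCANNAGNNGG, core letters of the CTCF motif, at chr11:5312668-5312678 on the minus strand, searched on both strands after HS5 was known to hold it. These letters stood in 5323 of 16655 regions (32.0%), in 638 of the 1738 regions above all sgGal4 libraries (36.7%) and in 16 of the 157 at a ratio of 3 or more (10.2%). They stood in 67 of the 524 regions with either stretch (12.8%) and in 121 of the 1194 below all sgGal4 libraries (10.1%). A match to letters is not a binding site.

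Regions lower with sgHS5 were of another kind. The 8 lowest among those with unadjusted p below 0.05 and no overlap were nearest to TFAP2A, CACNA1C, LZTS1, BICD2, PDZD8, SKOR2, MBD5 and ST6GALNAC5. Apart from LZTS1, with 0, 2 and 1 reads, they held no read in any sgHS5 library. At MBD5, a methyl-CpG-binding domain protein, an intronic region held 0, 0 and 0 reads with sgHS5, against 12, 13, 1 and 3 reads with sgGal4. At CACNA1C, a calcium channel subunit, an intronic region held 0, 0 and 0 reads with sgHS5, against 7, 13, 5 and 2 reads with sgGal4. Log2 ratios of the 8 lay between -4.71 and -4.46, where the sgHS5 level is the one given to 0 reads. Against a floor of 3 reads over the sgHS5 group, the pooled share of reads of the 7 was at least 18.6-fold (TFAP2A) to at least 28.9-fold (SKOR2) lower with sgHS5, and without sgHS5 replicate 2, the deepest, these limits were 9.002-fold and 14.0-fold. Without sgHS5 replicate 1 the log2 ratios of the 8 were -5.85 to -4.87, with limma adjusted p-values of 0.0108 to 0.0312. The 8 were chosen as the lowest in these same libraries, so these limits and p-values describe the choice and support nothing by themselves.

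All 8 were listed at the same place in all 16 other tables, which share the sgGal4 libraries. Of all 16655 regions 1661 (9.97%) were listed so. Their median log2 ratio was -2.15, and 982 of them (59.1%) lay below all sgGal4 libraries, against 7.17% of all regions, and 0 above. Of the 14142 regions listed at that exact place in no other table, 1704 (12.05%) lay above and 70 (0.495%) below. Of the 524 regions with either stretch, 517 were listed so in no other table and 0 in all of them. These counts take the exact place only, and regions listed nearby with an overlap are left out of them. By close overlap, 8263 of all regions (49.6%) were also listed for the guide pool sgHS1-5 and 4606 (27.7%) for sgHS5-sg2. HS5 itself overlapped a listed region in 3 other tables. The overlap was not counted for the 524 regions. How the authors chose the regions is not given in the sources used here, and its part in these counts was not tested. The 1004 regions at a ratio of -2 or less had a median GC content of 37.7%, and 3.59% had their middle within 1 kb of a start, against 49.7% and 17.6% in all regions.

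Regions near genes of erythroid and chromatin loop lists gave no adjusted call in any list. None of all 16655 regions had an adjusted call (0%), so this says nothing about these lists. Ribosomal protein genes had the most regions, 82 at 61 of 86 genes, with a median log2 ratio of 0.50 against 0.28 for all regions. Of these 10 were higher and 1 lower at unadjusted p with a ratio past 1 (6.83% and 8.81% of all regions), and 18 lay above and 2 below all sgGal4 libraries (10.4% and 7.17%). The highest, near RPL18 and in an intron of SPHK2, held 35, 29 and 11 reads with sgHS5, against 1, 2, 2 and 0 reads with sgGal4 (log2 ratio 1.88, limma adjusted p = 0.350), and shared 7 NGG-side bases with HS5. The lowest, near RPL19, held 0, 4 and 3 reads with sgHS5, against 13, 18, 0 and 0 reads with sgGal4 (log2 ratio -2.65, limma adjusted p = 0.0843), and its sgHS5 levels lay below all sgGal4 levels, those given to 0 reads included. Erythroid transcription factor genes had 12 regions, of which 0 were higher and 1 was lower at unadjusted p. KLF1 (an activator of the adult beta-globin gene) had 2 regions within 10 kb, which differed in direction. The lower one, in an exon of GCDH and 152 bp from its start, held 2, 5 and 3 reads with sgHS5, against 3, 10, 2 and 1 reads with sgGal4 (log2 ratio -1.84, limma adjusted p = 0.307), and the groups overlapped. The other, chr19:12992009-12992308 in an exon of DNASE2, held 9, 21 and 12 reads with sgHS5, against 5, 3, 0 and 0 reads with sgGal4 (log2 ratio 1.17, limma adjusted p = 0.365). All its sgHS5 levels lay above all sgGal4 levels.

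The remaining lists held few regions. Alpha-globin genes had 3 regions, with 0 past unadjusted p and a ratio past 1 (6.83% higher and 8.81% lower in all regions). Their highest region, near HBQ1 (theta-globin), held 11, 33 and 27 reads with sgHS5, against 3, 4, 0 and 2 reads with sgGal4 (log2 ratio 1.22, limma adjusted p = 0.321). Genes of CTCF, cohesin and partner proteins had 4 regions, with log2 ratios from -0.31 (YY1) to 0.95 (PDS5B), heme and iron genes 9, from -0.87 (PPOX) to 0.50 (CPOX), and red cell surface genes 4, from 0.01 (ANK1) to 0.62 (SPTB). None of these 17 passed unadjusted p with a ratio past 1, and so few regions cannot be told apart from the shares of all regions. Of the heme and iron regions 1 lay below all sgGal4 libraries, as did 7.17% of all regions. No region lay near the olfactory receptor genes that flank the cluster.

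Other guides give values beside these, to the same sgGal4 libraries and in tables normalised separately. The second HS5 guide, sgHS5-sg2, listed HS5 at chr11:5312434-5312733 with 991 and 489 reads in its 2 libraries and a log2 ratio of 6.30. The pool of guides sgHS1-5 listed it at chr11:5312435-5312734 with 606, 1014, 45, 27, 526 and 997 reads in its 6 libraries and a log2 ratio of 5.50, and sgHS4 did not list it. The distal regions were not shared in the same way. The NGG-side stretch was found in 13 of 6918 regions of sgHS5-sg2 (median log2 ratio 0.02), in 19 of 10734 of sgHS4 (0.51) and in 159 of 16890 of the pool (1.42). In the pool, its 158 regions other than HS5 took 2.86% and 4.42% of reads in replicates 5 and 6, against 0.482% to 0.655% in replicates 1 to 4. The inner stretch was found in 35 regions of the pool, which took 0.149% to 0.222% of reads in each of its 6 libraries. At UQCRFS1 the pool held 9, 13, 0, 1, 312 and 168 reads in replicates 1 to 6, with replicates 5 and 6 high, and at GPR157 10, 12, 0, 0, 7 and 4 reads, with none high.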

How the data were processed

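CAPTURE-ChIP-seq libraries of K562 cells were analysed from the authors' table for sgHS5. Reads that aligned once to hg19 were kept, per the labels' protocols, and the submitters' processing notes name Bowtie 1.0.0 and Picard. Neither the caller of regions nor the normalisation is given in the sources used here. The authors deposited log2 levels per library for 300 bp regions. Within a library these are linear in the log2 of a whole number, and that number less 1 was taken as the reads: 100% of values were whole to 0.01, or to 0.01% of a value where larger. The sum over listed regions is not the library's depth. The log2 ratio recomputed from the levels equals the authors' own within 2.02e-11. It departs from the difference of mean log2 levels by up to 3.46, and slopes of level on log2 reads ran from 1.00 to 1.38, so it is not a ratio of reads.

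Groups followed the column names. limma 3.58.1 in R 4.3.3 (empirical Bayes, no trend, Benjamini-Hochberg over 16655 regions) compared 3 with 4 libraries on the log2 levels, with no filter. It was also run on simulated reads, drawn for independent libraries with the same spread. The libraries here hold closely alike pairs and an unlike sgHS5 replicate 1, so that run does not vouch for these p-values. Shares of reads were compared by exact permutation. The alternatives were log2 reads with pseudocounts of 1 and 5, centring, a variance trend, a minimum mean of 10 reads, a replicate block, other control sets and leaving out each library. Genes are GENCODE 44 lifted to GRCh37, by nearest start, and sequences come from GRCh37. Members and lists were chosen with earlier results of these data known. Named regions are HS5, the cluster, regions tagged by the authors, outside the cluster the 12 highest and 8 lowest among regions with unadjusted p below 0.05 and no overlap, the 8 highest of these within 1 kb of a start, and the highest and lowest region of each gene list (within 10 kb of a start), of which 1 is not reported here. The rule on printed sequences was applied to 1 stretch of HS5. A further 15 regions share 12 bases with other stretches and are not printed. Of the samples of the series, 61 in all, 46 have columns in the tables used here.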

Additional observations from a re-analysis of the deposited data

Results flagged for a closer look

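At chr9:95494853-95495152, in an intron of BICD2 (a dynein adaptor) and among the 8 lowest regions, the sgHS5 libraries held 0, 0 and 0 reads, and the sgGal4 libraries 9, 15, 4 and 1. In log2 level 1 of the 4 sgGal4 libraries lay apart from the others, with a gap of 0.834 of the group's range to its nearest neighbour. Of 43 named regions 1 was picked out in this way, where chance picks about 1 in 20.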

How the results depend on the processing

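No adjusted call was made by limma on the deposited levels (0 higher and 0 lower, with 1137 and 1467 at unadjusted p). Adjusted calls, higher and lower, were 201 and 256 on log2 reads with a pseudocount of 1, 5 and 0 with a pseudocount of 5, 79 and 786 on levels centred on library medians, 29 and 2 with a variance trend, 2 and 0 with a mean of at least 10 reads, and 5119 and 809 with sgGal4 replicates 1 and 2 alone. Leaving out 1 library gave 0 to 7 higher and 0 to 731 lower, with the highest of both without sgHS5 replicate 1. Centring moved the median log2 ratio of all regions by -0.13, a pseudocount of 1 by -0.23 and sgGal4 replicates 1 and 2 alone by 0.77.

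Higher regions at unadjusted p, 1137 in all, were 6823 with sgGal4 replicates 1 and 2 alone and 260 with closely alike pairs counted once, and lower ones, 1467, were 59 at a mean of at least 10 reads and 921 with pairs counted once. Leaving out 1 library gave 508 (sgHS5 replicate 3) to 2412 (sgGal4 replicate 3) higher, with 627 and 537 without sgHS5 replicates 1 and 2, 580, 611 and 2372 without sgGal4 replicates 1, 2 and 4, and from 963 (sgHS5 replicate 2) to 1588 (sgHS5 replicate 1) lower. Regions without overlap, 1738 above and 1194 below, were 1070 and 91 at a mean of at least 10 reads, 8969 and 1840 with sgGal4 replicates 1 and 2 alone, and 1918 to 3180 above and 1283 to 2050 below with 1 library left out (2836 above without sgHS5 replicate 1, 3171 and 3180 without sgGal4 replicates 3 and 4). Settings that leave out regions or libraries compare fewer of them by construction, and the cause of the other changes was not tested.

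The log2 ratio at HS5 was 6.92, 6.39, 7.24, 7.62, 7.62 and 7.74 with an adjusted p of 0.0410 (pseudocount 1), 0.0228 (pseudocount 5), 0.01003 (centred), 0.000151 (variance trend), 0.00868 (mean of at least 10 reads) and 0.00262 (sgGal4 replicates 1 and 2 alone). Leaving out 1 library gave 5.92 to 8.06. Its share of reads differed by 0.658 percentage points, 0.163 to 0.909 with 1 library left out and 0.907 with pairs counted once, where the smallest exact p is above 0.05. The cluster without HS5 differed by 0.00293 percentage points, and by -0.000369 (without sgGal4 replicate 3) to 0.00715 (without sgHS5 replicate 1) with 1 left out. Libraries with the same number did not deviate together (correlations of -0.0098, 0.066 and -0.033). With the replicate block, replicates 1 to 3 of each group, 2156 regions were higher at unadjusted p and 3180 lay above all sgGal4 libraries, with 0 adjusted calls and an adjusted p of 0.1995 at HS5. Regions at unadjusted p numbered 3429 with the block and 3679 without it in the same libraries. For named regions, 511 values under alternatives stayed on the same side of the adjusted limit and 102 passed it.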
